A study of Mus musculus with 4 samples.

Results

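Collagen transcripts were followed through the cardiac differentiation of mouse pluripotent stem cells, from sorted mesodermal precursors to cardiomyocytes. The members are 10 transcripts, taken from a list of RefSeq identifiers and matched exactly to the identifiers printed on the array: Col1a1 (NM_007742), Col1a2 (NM_007743), Col3a1 (NM_009930), Col5a1 (NM_015734) and Col5a2 (NM_007737) for the fibrillar collagens, Col6a1 (NM_009933), Col6a2 (NM_146007) and Col6a3 (NM_001243008) for type VI, and Col4a1 (NM_009931) and Col4a2 (NM_009932) for type IV. All 10 were found, among 33226 identifiers in all, each with 1 probe. The list was chosen with the signals of these arrays known, so the levels and differences below describe the members and test nothing.

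The 4 populations were measured with 1 Agilent 1-colour array each. Flk1+ MPCs are mesodermal precursor cells, sorted for the VEGF receptor Flk1 at day 4.5 of differentiation without leukemia inhibitory factor. PCBs, which the study defines as PDGFRα+Flk1− cardioblasts, are of day 5.5 and were made with CsAYTE. CsAYTE mixes cyclosporin A, the vitamin E analogue Trolox and inhibitors of 2 kinases, Y27632 for ROCK and EW7197 for the TGF-beta receptor ALK5. sfPCBs are the PDGFRα+Flk1− cells that formed by day 5.5 without CsAYTE, for which DMSO was the control vehicle. M+CMs are cardiomyocytes of day 10.5, defined in the study as αMHC-GFP+ cells derived from PCBs. The label of their array does not say whether CsAYTE was still present. Everything came from mouse embryonic stem cells. The study's EMG7 line carries a fluorescent reporter behind the αMHC promoter, but the line behind each array is not named in the sources used here. Flk1+ MPCs were grown on gelatin up to the sort. They were then plated on growth-arrested OP9 feeder cells, a stromal line that can form fat cells, or on gelatin. The study reports no induction of PCBs in cultures without feeders. Feeder exposure, day and population therefore cannot be told apart, except that PCBs and sfPCBs were of the same day. With 1 array per population there was no replicate and no test. The errors given are those of the scanner software, which cover the reading of a spot and not the spread between cultures.

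Fibrillar collagens are the rope-like proteins of connective tissue. Types I and III form the bulk of the fibrils in the heart's interstitium, where fibroblasts are the main makers, and type V chains are built into the same fibrils and govern their assembly. Type VI chains assemble into beaded microfilaments around cells, and type IV chains form the sheet-like network of basement membranes, which surrounds cardiomyocytes and blood vessels. Chains of a type are secreted only as trimers, so the genes of partner chains are commonly read together.

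Levels are signals scaled so that the 75th percentile of every array was 2198.4 arbitrary units, and differences are log2 differences of those signals. A member or other probe was counted as higher or lower where the difference was at least 2-fold. All 10 members were called well above background on every array. Since probes bind with unequal strength, a level was compared between populations for 1 gene and never between genes. Sums over a marker list were likewise compared between populations only, and genes with bright probes weigh most in them.

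Fibrillar and type VI members were highest at day 5.5 and lower in Flk1+ MPCs and M+CMs, whereas type IV followed another course. In sfPCBs against Flk1+ MPCs, 8 of the 10 members were higher and none was lower, beside 12.0% of 30689 detected probes higher and 10.5% lower. The members' median log2 difference was 5.64, beside -0.22 for all detected probes. In PCBs against Flk1+ MPCs the count was again 8 higher and none lower, beside 11.6% of probes higher and 10.5% lower. The 2 members under 2-fold were in both cases Col4a1 and Col4a2, though without scaling both passed it in sfPCBs, at 1.11 and 1.02. These comparisons share the Flk1+ MPC array, and the members were chosen on the same signals, so nothing is read from the counts.

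**Figure D1:**
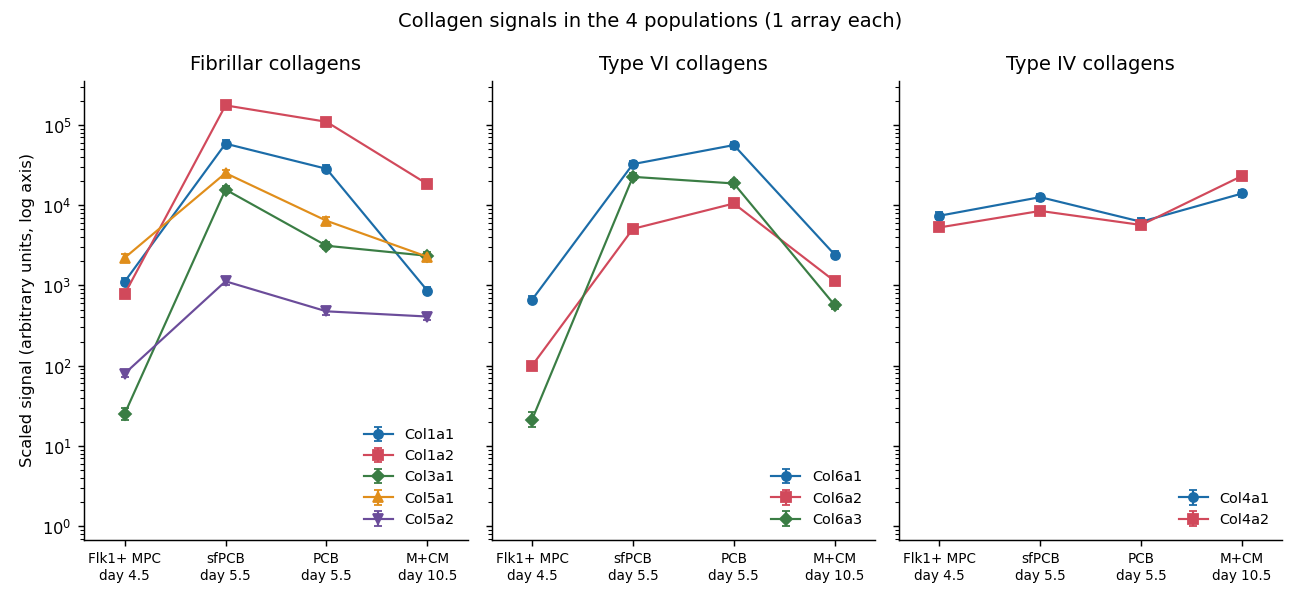
Scaled signal of each collagen (log axis, arbitrary units) in the 4 populations, with 1 array each and bars of 1 software error. The lines of fibrillar and type VI genes climb from Flk1+ MPCs to the day 5.5 populations, Col6a3 from 21.2 to 22521 in sfPCBs, while the type IV lines stay within a 4.39-fold range, and heights of different genes are not comparable.

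Col1a2 encodes the alpha2 chain of type I collagen. Its scaled signal was 779.9 in Flk1+ MPCs, 175056 in sfPCBs, 109298 in PCBs, then 18307 in M+CMs. Both day 5.5 populations were far above the other arrays, and M+CMs lay between them and Flk1+ MPCs. The sfPCB signal was 224-fold that of Flk1+ MPCs, a log2 difference of 7.81 with an error of 0.2.

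Col1a1 encodes the alpha1 chain of the same trimer. Its signal was 1110.2 in Flk1+ MPCs, 58341 in sfPCBs, 28386 in PCBs, then 860.0 in M+CMs. It was thus high at day 5.5 only, and the M+CM level was the lowest of the 4. The M+CM and Flk1+ MPC levels differed by -0.37 on the log2 scale, less than 2 errors. M+CMs were 33.0-fold below PCBs and 67.8-fold below sfPCBs.

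The partner chains of type I therefore parted in M+CMs. Against Flk1+ MPCs, Col1a2 was 23.5-fold higher in M+CMs while Col1a1 was not 2-fold different. The log2 difference of Col1a2 exceeded that of Col1a1 by 4.92, with an error of 0.29. In sfPCBs the same gap was 2.09 and in PCBs 2.45. Between the day 5.5 populations both chains moved nearly alike, by -0.68 for Col1a2 and -1.04 for Col1a1, a gap of 0.36 that is within 2 errors. Each chain was read by 1 probe on 1 spot, so whether the gap lies in the transcripts or in the probes was not tested.

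Col3a1 encodes type III collagen, which forms the fine reticular fibres of growing and elastic tissue. Its signal was 25.1 in Flk1+ MPCs, 15636 in sfPCBs, 3119.6 in PCBs, then 2338.3 in M+CMs. Flk1+ MPCs were close to the lowest signal called well above background there, 15.94, and sfPCBs stood clear of all others. The sfPCB signal was 624-fold that of Flk1+ MPCs and 5.01-fold that of PCBs, the widest day 5.5 gap among the members. The log2 difference between sfPCBs and Flk1+ MPCs, 9.29, became 7.54 with normexp and 7.71 with an offset of 50, as the Flk1+ MPC signal was low. PCBs and M+CMs differed by only -0.42, just over 2 errors.

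Type V was represented by Col5a1 and Col5a2, the chains that help start a fibril. Col5a1 read 2203.1 in Flk1+ MPCs, 25085 in sfPCBs, 6390.3 in PCBs, then 2273.8 in M+CMs. In sfPCBs it was 11.4-fold above Flk1+ MPCs, and M+CMs lay at the level of Flk1+ MPCs, with a log2 difference of 0.05. Col5a2 read 79.6, 1125.1, 475.4 and 409.4 in the same order of populations. In sfPCBs it was 14.1-fold above Flk1+ MPCs, and unlike Col5a1 it was still 5.14-fold higher in M+CMs. PCBs and M+CMs differed by less than 2 errors for Col5a2.

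Of type VI, Col6a1 and Col6a2 had the reverse order of the day 5.5 populations to the fibrillar members, and Col6a3 did not. Col6a1 encodes the alpha1 chain, and its signal was 661.0 in Flk1+ MPCs, 32434 in sfPCBs, 56014 in PCBs, then 2413.7 in M+CMs. Col6a2, which encodes the alpha2 chain, read 99.7, 5064.4, 10483 and 1127.2 in the same order. PCBs were the highest population for both genes, by 1.73-fold over sfPCBs for Col6a1 and by 2.07-fold for Col6a2. Their log2 differences from Flk1+ MPCs were 5.62 and 5.67 in sfPCBs and 6.41 and 6.72 in PCBs, so the partner chains differed by 0.05 and 0.31, within 2 errors of 0.29 each. With normexp background correction the sfPCB values were 5.54 for Col6a1 and 4.85 for Col6a2, a wider gap. In M+CMs they parted: Col6a1 was 23.2-fold below PCBs and Col6a2 9.3-fold.

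Col6a3 encodes the long alpha3 chain of type VI. Its signal was 21.2 in Flk1+ MPCs, 22521 in sfPCBs, 18632 in PCBs, then 567.9 in M+CMs. The day 5.5 populations did not differ beyond 2 errors, and both were far above the rest. The sfPCB signal was 1063-fold that of Flk1+ MPCs, a log2 difference of 10.05 with an error of 0.34, and this exceeded 99.96% of the differences of all detected probes. M+CMs were 32.8-fold below PCBs yet 26.8-fold above Flk1+ MPCs. Folds against the low Flk1+ MPC signal shrank with other treatments of the background: the sfPCB log2 difference was 7.88 with normexp and 8.31 with an offset of 50, and that of M+CMs, 4.75, became 2.67 and 3.12.

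Type IV varied least over the arrays, within 2.25-fold for Col4a1 and 4.39-fold for Col4a2. Col4a1 encodes the alpha1 chain of the common basement membrane trimer, and its signal was 7373.5 in Flk1+ MPCs, 12579 in sfPCBs, 6204.5 in PCBs, then 13971 in M+CMs. This member alone was printed on 10 spots, which ranged from 6664.8 to 7758.7 in Flk1+ MPCs, from 11408 to 13638 in sfPCBs, from 5934.9 to 6532.5 in PCBs and, over the 9 spots kept, from 13433 to 14570 in M+CMs. After scaling, the spots of PCBs did not overlap those of any other array, and those of sfPCBs overlapped those of M+CMs. Spots of 1 array share its RNA, so their SD of 0.036 to 0.083 on the log2 scale is technical. M+CMs and sfPCBs differed by 0.15 (-0.21 without scaling) and PCBs and Flk1+ MPCs by -0.25 (-0.07 without scaling), both within 2 software errors. The separation of the PCB spots from those of Flk1+ MPCs therefore depends on the scaling.

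Col4a2 encodes the partner chain of the same trimer. It read 5272.4 in Flk1+ MPCs, 8469.3 in sfPCBs, 5662.1 in PCBs, then 23142 in M+CMs. M+CMs were the highest for Col4a2, at 2.73-fold over sfPCBs, and for Col4a1 they shared the highest level with sfPCBs within error. The log2 difference of Col4a2 from Flk1+ MPCs stayed at 0.68 in sfPCBs and 0.1 in PCBs and reached 2.13 in M+CMs, where it exceeded that of Col4a1 by 1.21 with an error of 0.29. Over all 10 members, 7 of the 30 pairs of neighbouring levels lay within 2 errors of each other.

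Between PCBs and sfPCBs, which were of the same day and differed in CsAYTE, the members did not all move the same way. There 5 members were lower in PCBs, beside 6.41% of 30117 detected probes, and 1 was higher, beside 4.95%. The lower ones were Col1a1, Col3a1, Col5a1, Col5a2 and Col4a1, and the higher one was Col6a2. Of the fibrillar group, 4 of 5 were lower and none higher, with a median log2 difference of -1.24. Of type VI, 1 of 3 was higher and none lower, with a median of 0.79, while Col6a3, at -0.27, had the sign of the fibrillar group. Of type IV, 1 of 2 was lower and none higher. The median over all detected probes was 0.03. Col1a1, Col6a2 and Col4a1 lay close to the 2-fold threshold, at -1.04, 1.05 and -1.02.

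In M+CMs against PCBs, 6 members were lower, beside 14.7% of 31131 detected probes, and 2 were higher, beside 18.7%. All 3 type VI members were lower, with log2 differences of -3.22 to -5.04, and 3 of 5 fibrillar members were lower, from -1.49 to -5.04. Col3a1 and Col5a2 stayed under 2-fold, and both type IV members were higher. Against sfPCBs, M+CMs were lower for 8 members and higher for 1, Col4a2, beside 17.2% and 20.9% of 31376 detected probes. Against Flk1+ MPCs, M+CMs were higher for 7 members and lower for none, and each direction held 20.7% of 31539 detected probes. These 3 comparisons share the M+CM array. In cells sorted or grown as a mixture, fewer cells of a type and less RNA per cell cannot be told apart, and this touches each of the differences above.

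**Figure D2:**
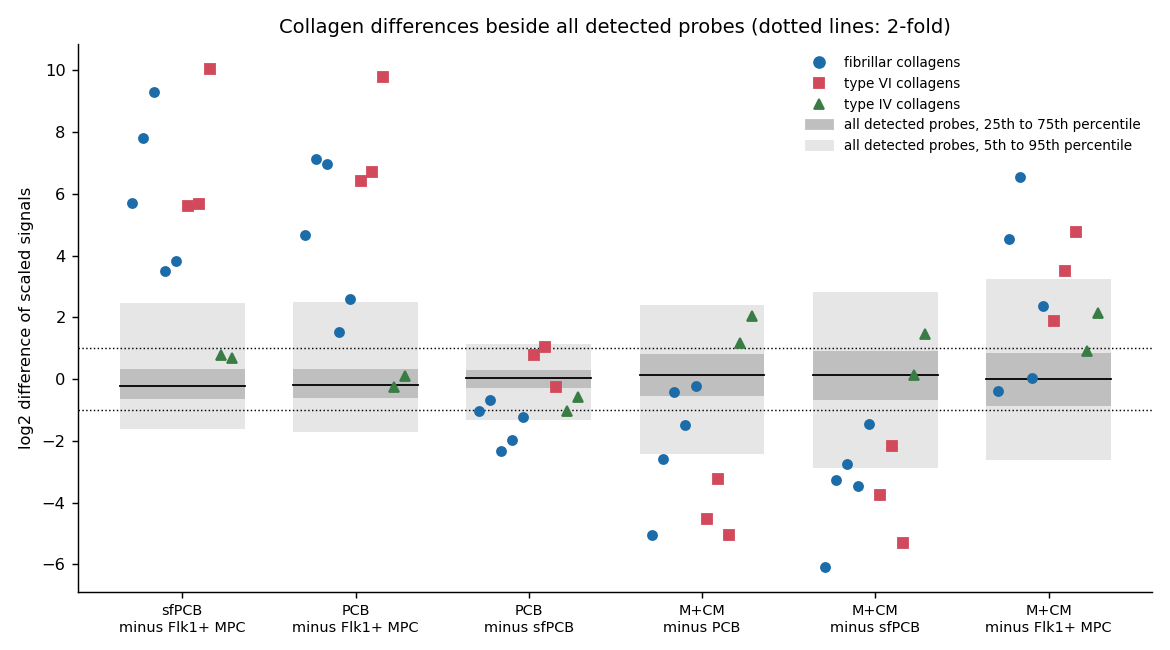
Log2 difference of each collagen in the 6 comparisons (points), beside the middle 50% and 90% of all detected probes (dark and pale grey boxes, with the median as a line). In sfPCBs and PCBs against Flk1+ MPCs the type IV points lie inside the boxes, at -0.25 to 0.77, and the fibrillar and type VI points reach 9.29 and 10.05. In M+CMs against PCBs the type IV points, 1.17 and 2.03, are the ones above 0.

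Several members sit in pairs of adjacent genes, with no other coding gene between them in the RefSeq annotation: Col3a1 and Col5a2 on chromosome 1, Col6a1 and Col6a2 on chromosome 10, and Col4a1 and Col4a2 on chromosome 8. Adjacent genes moved together in some cases and apart in others. In sfPCBs against Flk1+ MPCs the members of a pair differed by 0.05 for type VI and by 0.09 for type IV, but by 5.46 for Col3a1 and Col5a2, with an error of 0.35. In M+CMs against PCBs the gap was 0.2 for Col3a1 and Col5a2, 0.86 for type IV and 1.32 for type VI.

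Promoter windows of RefSeq (GRCm38.p6) were matched for 8 members, all but Col1a1 and Col5a2, with 2 windows for Col6a2. In the 250 bases before each start, on both strands, 4 motifs were searched: the CCAAT box as CCAAT, the TATA box as TATAAA, the GC box as GGGCGG, and GGGAGG, whose letters can overlap a GC box at their ends. The windows of 3 genes are printed because they stand for members with unlike courses: Col1a2, which stayed above Flk1+ MPCs in M+CMs, Col3a1, which had the widest day 5.5 gap, and Col6a1, which was highest in PCBs. Capitals mark CCAAT in Col1a2, TATAAA in Col3a1 and the reverse complement of GGGAGG in Col6a1, each sequence read 5′ to 3′ on its gene's strand.
Col1a2, chr6:4505368-4505617, plus strand: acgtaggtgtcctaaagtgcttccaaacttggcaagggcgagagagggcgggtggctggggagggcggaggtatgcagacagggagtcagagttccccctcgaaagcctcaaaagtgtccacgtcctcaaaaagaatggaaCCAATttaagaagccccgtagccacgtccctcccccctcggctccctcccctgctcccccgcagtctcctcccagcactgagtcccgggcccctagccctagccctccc
Col3a1, chr1:45311288-45311537, plus strand: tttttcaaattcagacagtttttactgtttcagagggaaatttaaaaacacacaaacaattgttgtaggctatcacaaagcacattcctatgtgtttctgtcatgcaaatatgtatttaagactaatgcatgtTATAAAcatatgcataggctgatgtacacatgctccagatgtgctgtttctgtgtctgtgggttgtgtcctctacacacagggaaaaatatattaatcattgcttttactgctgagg
Col6a1, chr10:76726045-76726294, minus strand: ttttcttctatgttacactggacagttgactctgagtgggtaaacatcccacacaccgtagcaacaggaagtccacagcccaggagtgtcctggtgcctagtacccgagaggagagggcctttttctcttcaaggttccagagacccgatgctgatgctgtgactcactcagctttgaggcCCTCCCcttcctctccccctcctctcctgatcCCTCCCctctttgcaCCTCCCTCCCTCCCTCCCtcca

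CCAAT was in the windows of Col1a2, Col4a1 and Col4a2, 3 of 9, beside 33.8% of all 32851 promoters. In Col1a2 it begins at position -109 from the start. TATAAA was in the window of Col3a1 alone, where it begins at position -117, beside 12.4% of all promoters. The Col3a1 window had a GC content of 35.2%, the lowest of the 9. GGGCGG was in 5 of 9 windows and in 32.7% of all, and GGGAGG in 8 of 9 and in 38.0% of all. Col6a1 held 6 reverse matches of GGGAGG, some of them overlapping. Col4a1 and Col4a2 start 21 bases apart on opposite strands, so their 300-base windows, which run past the start, share 78 bases, while the searched 250 bases of each do not overlap. The CCAAT box of Col4a2 begins at position -32 from its start and is shown in capitals in a 30-base piece, since both chains of type IV hold this box.
Col4a2, chr8:11312763-11312792, plus strand: gaggagctccCCAATttgttggcgctgccc
A match is a string of letters and not a bound site.

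Genes that modify, fold and crosslink collagen chains were counted next. Of 30 such genes, 29 were detected in sfPCBs or Flk1+ MPCs. Of these, 12 were higher in sfPCBs and 2 lower, beside 12.0% and 10.5% of all detected probes. Their median log2 difference was 0.65, beside -0.22 for all detected probes. Named by size of difference, Lox, the lysyl oxidase that crosslinks fibrils, was at least 133-fold higher in sfPCBs by its brighter probe and 73.7-fold or more by the other. The brighter was not well above background in Flk1+ MPCs or M+CMs, at 4.0 and 11.1, and read 2120.6 in sfPCBs and 782.8 in PCBs. Its relative Loxl1 was 201-fold higher, and 84.4-fold by a dimmer probe, at 64.6 in Flk1+ MPCs and 12979 in sfPCBs, with 7762.7 in PCBs, then 1590.3 in M+CMs. Adamts2, the protease that removes the amino-terminal propeptide of fibrillar chains, was 102-fold higher, but 8.51-fold by a dimmer probe. It read 125.7 in Flk1+ MPCs, 12844 in sfPCBs, 1053.8 in PCBs, then 294.0 in M+CMs, and its level in PCBs was 12.2-fold below that in sfPCBs, or 6.18-fold by the dimmer probe.

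Other genes of the list varied less, or in another direction. Serpinh1, the chaperone HSP47 that binds procollagen in the endoplasmic reticulum, read 32690.0 in Flk1+ MPCs, 87329 in sfPCBs, 62988 in PCBs, then 49422 in M+CMs. Plod2, a lysyl hydroxylase that prepares crosslinks, read 2401.3, 2841.6, 1833.2 and 2533.7 in the same order, with no difference of 2-fold. P4ha1, a catalytic subunit of the prolyl hydroxylase that stabilises the triple helix, ran against the fibrillar genes. It read 4634.2, 3105.8, 2003.0 and 14753, so that M+CMs were 7.37-fold above PCBs. In PCBs against sfPCBs, 7 of 30 processing genes were lower and none higher, beside 6.41% and 4.95% of all detected probes. In M+CMs against PCBs, 7 were lower and 6 higher, shares not far from the 14.7% and 18.7% of all detected probes.

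**Figure D3:**
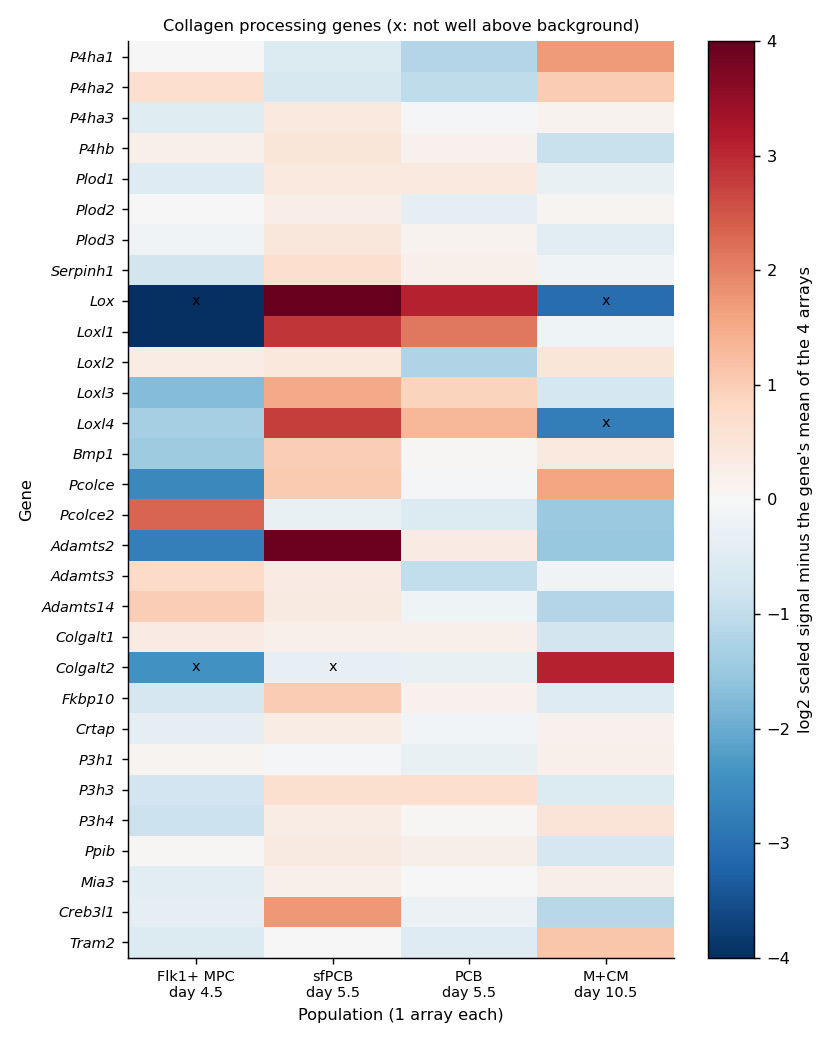
Log2 scaled signal of the 30 collagen processing genes (rows) in the 4 populations (columns, 1 array each), less the gene's own mean, with colours clipped at -4 and 4 and crosses where the probe was not well above background. Lox, Loxl1 and Adamts2 are red in sfPCBs, whereas P4ha1 is red in M+CMs, where it read 14753.

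Enzymes and receptors that break down, protect or bind collagen were counted likewise. Of 13 detected, 11 were above Flk1+ MPCs in sfPCBs and none below, beside 12.0% and 10.5% of all detected probes. Their median log2 difference was 2.23. Ddr2, a receptor kinase activated by fibrillar collagen, was higher in sfPCBs by both of its probes, which disagreed in size. The brighter was not well above background in Flk1+ MPCs and at least 272-fold higher in sfPCBs, and the other read 20.9 and 562.2, a 27.0-fold difference. Itga11, an integrin subunit that binds type I collagen, was 34.6-fold higher, and Timp3, an inhibitor of matrix proteases, 19.1-fold. In PCBs against sfPCBs, 7 were lower and none higher, beside 6.41% and 4.95% of all detected probes. Mmp2, the gelatinase that digests type IV and denatured collagen, read 3233.1 in Flk1+ MPCs, 8066.0 in sfPCBs, 3451.7 in PCBs, then 173.3 in M+CMs. M+CMs were 19.9-fold below PCBs for it, while Ddr1, the related receptor of epithelial cells, was 12.2-fold higher there.

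Other collagens were measured beside the members. Of 15 detected, 9 were above Flk1+ MPCs in sfPCBs and 1 below, beside 12.0% and 10.5% of all detected probes. Col5a3, a further type V chain, was at least 167-fold higher, and read 2662.7 in sfPCBs and 4052.0 in PCBs but 47.4 in M+CMs, so that PCBs were above sfPCBs, as for Col6a1 and Col6a2. Col8a1, a short-chain collagen of vessel walls, was at least 31.2-fold higher. Col2a1, the fibrillar collagen of cartilage, was 68.5-fold higher, at 285.7 in Flk1+ MPCs, 19583 in sfPCBs, 10282 in PCBs, then 750.6 in M+CMs. Of the further type IV chains, Col4a5 read 261.5, 2254.2, 1172.1 and 10180.4 in that order and Col4a6 535.4, 1626.2, 1360.7 and 5794.4, both highest in M+CMs, as Col4a2 was. A dimmer Col4a6 probe read 287.9, 281.4, 245.1 and 408.9, with no difference of 2-fold.

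Basement membrane partners of type IV included laminins, nidogens and perlecan. Of 12, all detected, 8 were above Flk1+ MPCs in sfPCBs and none below, beside 12.0% and 10.5% of all detected probes. In M+CMs against PCBs, 5 were higher and 1 lower, beside 18.7% and 14.7% of all detected probes. The largest difference there was Lama2, the laminin alpha2 chain of muscle basement membrane, at 40.8 in Flk1+ MPCs, 191.8 in sfPCBs, 220.5 in PCBs, then 27921 in M+CMs. M+CMs were 127-fold above PCBs for it. Lama1, the alpha1 chain of early embryonic basement membrane, was 26.1-fold lower, at 467.9 in M+CMs and 12212 in PCBs. Lamc1, the gamma1 chain shared by most laminins, was 3.85-fold higher.

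Marker genes of other cell types also differed between the arrays. The stromal and fibroblast list of 12 genes summed to 3764.2 in Flk1+ MPCs, 69878 in sfPCBs, 18823 in PCBs, then 4204.1 in M+CMs, with 5, 11, 10 and 11 genes well above background. Of its defining genes, Dcn, the proteoglycan decorin, read 12.5, 3793.5, 123.8 and 393.0, and Lum, the proteoglycan lumican, 3.4, 8781.9, 30.2 and 103.8, with Flk1+ MPCs not well above background for either. Dpt, the matrix protein dermatopontin, was not well above background on any array. Both Dcn and Lum were thus highest in sfPCBs, as all 5 fibrillar members were. Of the 11 stromal genes detected on any array, 8 were highest in sfPCBs by their brightest probes. Prrx1 and Fap were highest in PCBs and Thy1 in Flk1+ MPCs. Among the 8 was Cxcl12, which gave 21426 of the sfPCB sum and read 8915.5 in PCBs. By a dimmer probe Cxcl12 was highest in PCBs, at 4125.1, beside 3570.4 in sfPCBs. Postn, the fibroblast matrix protein periostin, read 12884 in sfPCBs and was not well above background in PCBs.

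Against sfPCBs, PCBs were lower for 7 of the 11 stromal genes detected and higher for none, beside 6.41% and 4.95% of all detected probes. Among the 7, Cxcl12 was 2.4-fold lower by its brightest probe but not 2-fold different by the dimmer one. Of type VI, Col6a1 and Col6a2 were at their highest in PCBs and Col6a3 was not. The preadipocyte list of 7 genes summed to 3465.0, 30083, 55432 and 44883 in the order of populations. Of the 7, 4 were higher in PCBs than in sfPCBs and none lower, beside 4.95% and 6.41% of all detected probes. Lpl, a lipase also made by heart muscle, gave 42308 of the M+CM sum, and the other 6 genes summed to 2506.0, 22619, 38426 and 2575.2. Of its defining genes, Fabp4, the fatty acid carrier of fat cells, read 102.0, 7958.1, 23663 and 383.8, Pparg, the fat cell transcription factor, 541.6, 5254.9, 4613.2 and 805.9, and Adipoq, the hormone adiponectin, 40.2, 24.9, 253.9 and 72.9. Fabp4 and Pparg were thus highest at day 5.5, as the fibrillar and type VI members were, and PCBs were the highest for Fabp4 and Adipoq. The part of feeder or fibroblast-like cells in the collagen levels was not tested.

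**Figure D4:**
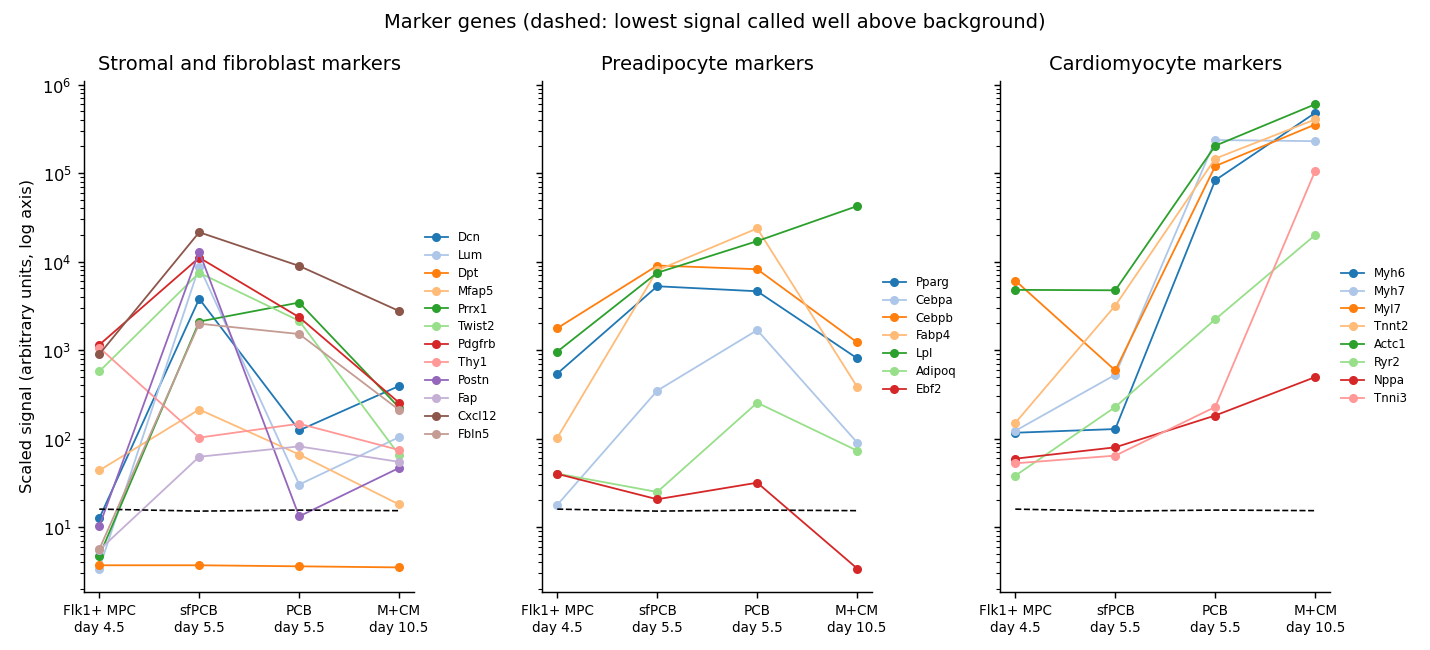
Scaled signal (log axis, arbitrary units) of stromal and fibroblast, preadipocyte and cardiomyocyte markers in the 4 populations, 1 array each, with a dashed line at the lowest signal called well above background. Each gene is drawn by its brightest probe. Of the 11 stromal markers detected, 8 are highest in sfPCBs, such as Lum (8781.9), with Prrx1, Fap and Thy1 highest elsewhere. Cardiomyocyte markers such as Myh6 climb to M+CMs.

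The labels were checked against the markers. Cardiomyocyte markers, 8 genes, summed to 11420 in Flk1+ MPCs, 9520.9 in sfPCBs, 790030.3 in PCBs, then 2188978 in M+CMs. M+CMs had the highest sum and were highest for Col4a2. The lowest sum was in sfPCBs, which were level with M+CMs for Col4a1 within error. A link between this sum and the type IV levels was not tested. Kdr, the gene of Flk1, was highest in Flk1+ MPCs by both of its probes, which disagreed in size: 54864 against 767.8 in PCBs by one, and 11263 against 7272.5 by the other. Pdgfra, whose receptor PCBs carry by definition while lacking Flk1, read 7236.6 in Flk1+ MPCs, 3646.6 in sfPCBs, 9135.9 in PCBs, then 918.3 in M+CMs. Endothelial, smooth muscle and pericyte, and extraembryonic endoderm lists summed to 12933 to 33326, 23355 to 412945 and 9927.7 to 43167. Single genes carried much of these sums: in M+CMs Gata6, which heart cells also use, gave 42458 of the endoderm sum and Acta2 312114 of the smooth muscle sum. In Flk1+ MPCs Egfl7 gave 21661 of the endothelial sum. That sum took the Kdr probe reading 11263 in Flk1+ MPCs and not the one reading 54864. Cdh5, a defining endothelial gene, read 986.6 in sfPCBs and was not well above background in PCBs or M+CMs. Pecam1, the other defining endothelial gene, was well above background on every array. It read 204.9 in Flk1+ MPCs, 412.1 in sfPCBs, 181.0 in PCBs, then 372.6 in M+CMs. Myh11, a defining smooth muscle gene, was not well above background in sfPCBs, whereas Rgs5, the other defining gene of that list, was highest there. Rgs5 read 660.4 in Flk1+ MPCs, 9109.5 in sfPCBs, 1014.3 in PCBs, then 22.4 in M+CMs. Of the defining endoderm genes, Sox17 was well above background in Flk1+ MPCs and sfPCBs only, Afp in sfPCBs and PCBs only, and Ttr in M+CMs only.

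The members' median course, as log2 signals centred on each gene's mean, was -2.99 in Flk1+ MPCs, 2.19 in sfPCBs, 1.72 in PCBs, then -0.4 in M+CMs. Among 22806 other curated transcripts, the 5 closest to it by root mean square distance over the 4 populations were Irgm2, an immunity-related GTPase, at 0.16, Dglucy, a D-glutamate cyclase not well above background in Flk1+ MPCs, at 0.19, Eif2ak2, a kinase activated by double-stranded RNA, at 0.22, Cdsn, a protein of skin cell junctions, at 0.23, and Csf1, a macrophage growth factor, at 0.23. With 4 arrays and so many candidates, closeness of this kind describes the shape of the course only.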

How the data were processed

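Total RNA of 4 sorted populations was labelled with Cy3 and hybridised to 1-colour Agilent arrays, 1 per population (Feature Extraction 11.5.1.1, design header mm9). The intensity of a spot is the processed signal of the deposited scanner files, already background-corrected by the authors' scanner software. The series matrix deposited by the authors holds log2 signals of the same arrays and served as an alternative. Control spots and 87 to 144 outlier spots per array were left out, and 0 spots were saturated. Signals were scaled to each array's 75th percentile, repeated spots of a probe were averaged on the log2 scale, and 72.9% to 76.0% of 39428 probes were well above background. A difference of 2-fold was counted over probes detected on either array compared. Where one side was not well above background, the fold is a bound against the lowest signal called well above it. No test was possible with 1 array per population, and the number of arrays limits the precision. Scripts were tested on simulated data.

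The members and gene lists were chosen with earlier results of these data known. The text names all members and, per list, the 3 genes of largest difference in a comparison and those whose role was needed. A list gene was read by its brightest probe. Symbols were paired through RefSeq for 27507 probes. The error of a difference combines the software's signal errors. Alternatives changed scaling, background correction (normexp of limma 3.58.1 in R 4.3.3, on median signals since mean signals are absent from the files), offset and detection. Python 3.11.15, numpy 2.4.6 and pandas 2.3.3 were used.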

Additional observations from a re-analysis of the deposited data

How the results depend on the processing

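The number of members at least 2-fold different was recomputed under 10 alternatives in each of the 6 comparisons, and both directions together stayed within 1.5 times 8, 8, 6, 8, 9 and 7 (in the order of the plot of differences). By direction, lower members in PCBs against sfPCBs went from 5 to 3 with normexp, and without scaling higher ones went from 1 to 0 there, from 2 to 1 in M+CMs against PCBs and from 8 to 10 in sfPCBs against Flk1+ MPCs. Of 600 recomputed log2 differences, 75 moved by more than the software error, 45 of them to a smaller size. None that was called changed its sign. Among the alternatives, the changed detection rules and the removal of saturated spots could move neither these values nor the member counts above. All 10 members were detected on every array and no spot was saturated. Leaving the arrays unscaled moved 29 values, normexp with an offset of 50 moved 15 or 16, and the offset alone 12; normexp and the offset shrink differences of low signals by construction. Against Flk1+ MPCs, Col3a1, Col5a2, Col6a2 and Col6a3 shrank by over 1.5 times with normexp: in sfPCBs to 7.54, 3.04, 4.85 and 7.88, in PCBs to 5.14, 1.82, 6.03 and 7.47, and in M+CMs to 4.69, 1.65, 2.85 and 2.67. Values near 2-fold crossed it: unscaled, Col4a1 and Col4a2 in sfPCBs against Flk1+ MPCs became 1.11 and 1.02, Col6a2 in PCBs against sfPCBs 0.9, Col4a1 in M+CMs against PCBs 0.96, and Col4a1 in M+CMs against sfPCBs turned from 0.15 to -0.21. With normexp, Col1a1 and Col4a1 in PCBs against sfPCBs became -0.97 and -0.99. Col4a1 in M+CMs against Flk1+ MPCs, 0.92, became 1.13 by quantile normalization, 1.08 with the percentile over probes detected on all arrays, and 1.21 by normexp with quantiles. Without scaling, the share of called probes that were higher went from 53.4% to 75.4% in sfPCBs and from 52.6% to 64.3% in PCBs against Flk1+ MPCs, from 43.6% to 32.2% in PCBs against sfPCBs, and in M+CMs from 56.0% to 43.7% against PCBs and from 54.9% to 36.5% against sfPCBs. The median of all detected probes moved with it, from -0.22 to 0.11 in sfPCBs against Flk1+ MPCs and from 0.13 to -0.23 in M+CMs against sfPCBs, and the members' medians moved from 5.64 to 5.98 and from -3.0 to -3.36. No paired analysis was possible because each population had 1 array. Low signals limit the size of the largest folds, as for Col3a1 and Col6a3 in Flk1+ MPCs, at 25.1 and 21.2. The lowest signal called well above background there was 15.94.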
